A study of Mus musculus with 12 samples.

Results

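Collagen genes were followed in RNA sequencing libraries from the meninges of the mouse, the membranes that cover the brain. They were chosen by symbol alone, as every gene named Col, a number, a and a number, which gave 44 of the 27593 genes present in both gene annotations used for counting. The classes were 11 fibrillar, 6 basement membrane and 27 other collagen genes. All 44 had at least 1 count in some library, and 38 were kept by the low-count filter for testing. The 6 that did not pass were Col6a4, Col6a6, Col9a2, Col10a1, Col19a1 and Col22a1.

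All mice were C57BL/6J males, and each of the 4 groups had 3 libraries. The psilocybin, MDMA and vehicle groups all went through 18 days of chronic restraint stress and then received psilocybin, MDMA or vehicle 24 hours before collection, and the remaining group was unstressed. Psilocybin is converted in the body to psilocin, which activates serotonin receptors. MDMA, a substituted amphetamine, makes neurons release serotonin and other monoamines. No dose is stated in the sources used here. The libraries are labelled as monocytes obtained with a magnetic isolation kit and were made from 5 ng of RNA each. Nothing in the labels says that the libraries of a group came from separate mice or pools, so p-values measure the spread between libraries, which may be technical.

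Collagens are triple helices of 3 chains, each chain the product of 1 gene. Fibrillar chains, above all those of types I and III, form the banded fibres of the dura and of bone, and fibroblasts and osteoblasts are their main makers. Type IV chains form the sheet-like network of basement membranes under endothelium, epithelium and the pial surface. The other classes decorate fibrils (the types called FACIT, such as IX, XII and XIV), form beaded filaments around cells (type VI), build short-chain lattices (type VIII), or span the cell membrane.

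The libraries held 807725 to 5136953 gene counts. Vehicle library 2 was the shallowest, and vehicle libraries 1 and 3 stood apart from the rest in the number of genes with a count, 12691 and 11039, against 15649 to 24122 in the 7 other libraries of stressed mice. Unstressed libraries had 15429 to 20013 in their own annotation, which lists a different set of genes. The 8 monocyte markers summed to 235 to 580.5 CPM (counts divided by the library's total and scaled to a common total of 1000000) in psilocybin, 555 to 1247 in MDMA, 167 to 611 in vehicle and 453 to 519 in unstressed libraries, and the defining marker Ly6c2 was at 0 in vehicle library 1. The 10 fibroblast markers summed to more in each group, at 1816 to 4043, 4257 to 5762, 1500 to 3577 and 3130 to 4046 CPM in psilocybin, MDMA, vehicle and unstressed libraries. The monocyte and fibroblast lists share Fn1, without which the 7 other monocyte markers summed to 80.2 to 352, 269.6 to 849.7, 51.3 to 214 and 80.1 to 211 CPM in the same groups. The 10 choroid plexus markers reached 64605 to 118056 CPM in psilocybin, 22814 to 44568 in MDMA, 13090 to 127185 in vehicle and 15495 to 40489 in unstressed libraries. The label monocyte was therefore not matched by the leading markers. The values below are read as those of a mix of cell types, in which fewer cells of a type and less RNA per cell cannot be told apart. Whether an impure isolated fraction or whole meninges was sequenced was not tested.

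Type I collagen led the collagens when levels were divided by exon length. Mean CPM per kilobase (kb) over the 12 libraries was 283 for Col1a1 and 267 for Col1a2, the 2 chains of type I collagen. Next came Col8a1 (129.9), Col3a1 (84.0), Col6a1 (82.5), Col9a3 (65.5), Col8a2 (55.2) and Col6a2 (34.8), followed by Col12a1 (28.5), Col14a1 (19.0), Col5a2 (17.9) and Col4a2 (17.6). The spread between libraries was wider than most steps in this order. Col1a1 ranged over the libraries from 5.96 to 1177 CPM per kb and Col1a2 from 25.6 to 609.9, so the pair could not be ordered. Lengths are those of RefSeq exons, and the stressed libraries were counted over Ensembl exons, which for Col1a2 cover 12426 bases against 5222 in RefSeq.

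**Figure D1:**
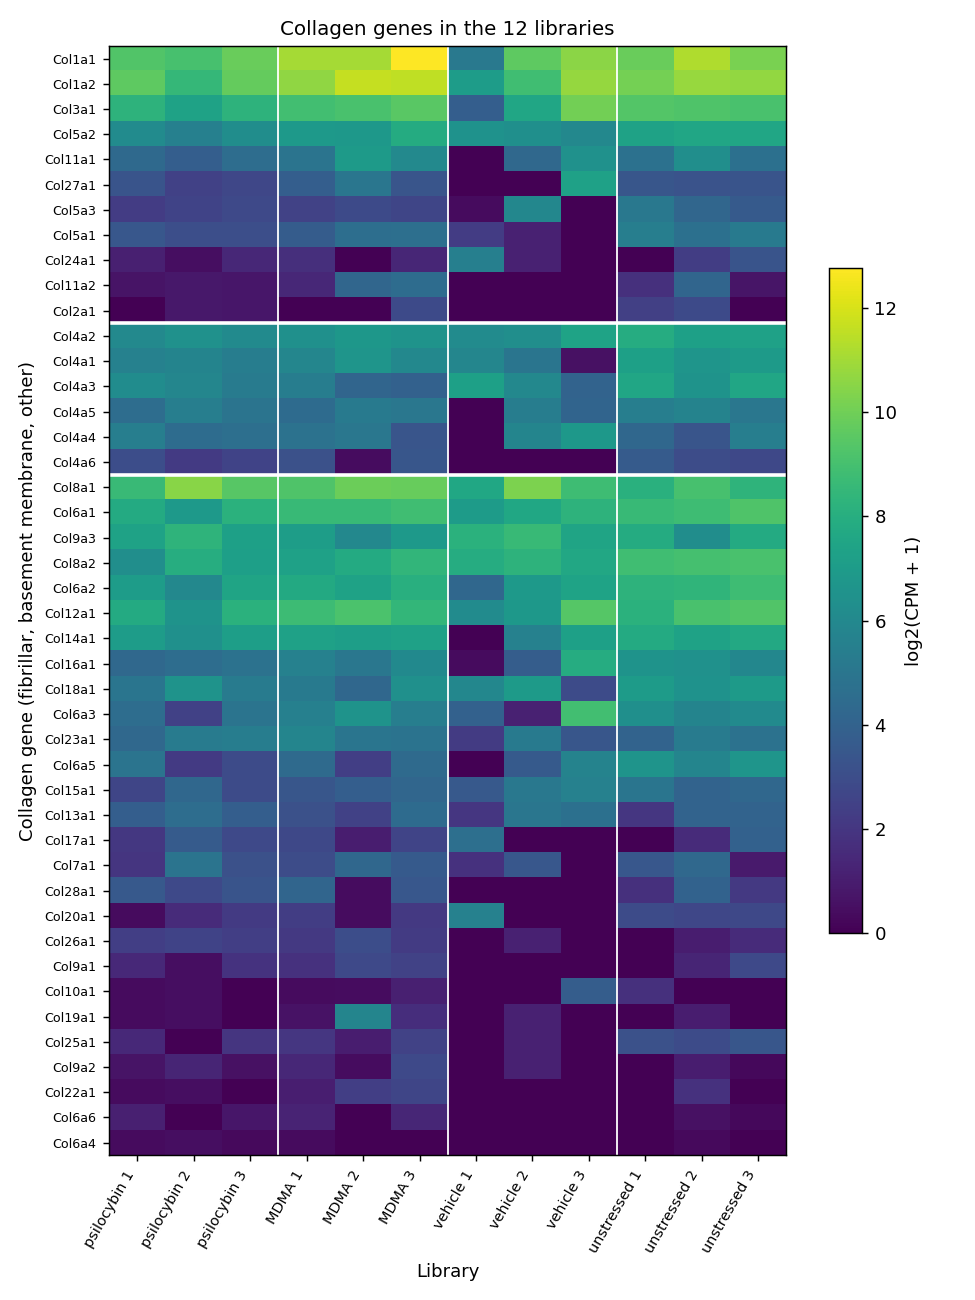
Level of each of the 44 collagen genes in each of the 12 libraries, as log2(CPM + 1) in colour, with genes in rows by class (white lines part fibrillar, basement membrane and other) and libraries in columns. Col1a1 and Col1a2 are the brightest rows, Col4a6 and Col28a1 are at 0 in all 3 vehicle libraries, and vehicle libraries 1 and 3 show the most dark cells.

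Summed over the 44 genes, collagens took 0.360% to 0.450% of counts in psilocybin, 0.701% to 1.42% in MDMA, 0.170% to 0.796% in vehicle and 0.622% to 0.868% in unstressed libraries. The fibrillar sum was 1842, 1131 and 2207 CPM in psilocybin libraries 1, 2 and 3, and 4387, 6175 and 11058 CPM in MDMA libraries. It was 322, 1582 and 4633 CPM in vehicle libraries and 2927, 5229 and 3666 CPM in unstressed libraries. Every psilocybin library lay below every MDMA and every unstressed library, while the vehicle libraries spanned a range that overlapped all the others.

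The basement membrane sum showed another order. It was 256, 265 and 206 CPM in psilocybin, 239, 290.3 and 220.2 CPM in MDMA and 281, 266 and 313 CPM in vehicle libraries, against 646, 415 and 543 CPM in unstressed libraries. The 9 libraries of stressed mice thus lay within 206 to 313 CPM, and each unstressed library was above them. Over Col4a2, Col4a4 and Col4a5, the 3 members with nearly the same exons in the annotations, the groups did not stay apart. Their sum was 129, 151 and 121 CPM in psilocybin, 132, 174 and 134 CPM in MDMA and 70.9, 176 and 296 CPM in vehicle libraries, against 296, 215 and 231 CPM in unstressed libraries. Vehicle library 3 thus lay above 2 of the 3 unstressed libraries, while both drug groups lay below all 3. Stressed and unstressed libraries were counted with different annotations, so annotation and group cannot be told apart in this contrast. Own exon bases, those a gene shares with no other gene, were close for Col4a1 (7442 in Ensembl, 7438 in RefSeq) and Col4a2 (6554 and 6428), and larger in Ensembl for Col4a3 (9404 and 8602) and Col4a6 (7973 and 6768).

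The other collagens summed to 1506, 2598 and 2087 CPM in psilocybin, 2386, 2799.8 and 2923 CPM in MDMA, 1099.7, 2643 and 3011 CPM in vehicle and 2649.6, 3035 and 3437 CPM in unstressed libraries, and all groups except psilocybin and unstressed overlapped. As a share of all collagen counts, the fibrillar class took 28.3% to 51.1% in psilocybin, 62.6% to 77.9% in MDMA, 18.9% to 58.2% in vehicle and 47.0% to 60.3% in unstressed libraries. The leading collagen gene was Col1a1 or Col1a2 in 9 of the 12 libraries, Col8a1 in psilocybin library 2 and vehicle library 2, and Col9a3 in vehicle library 1.

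**Figure D2:**
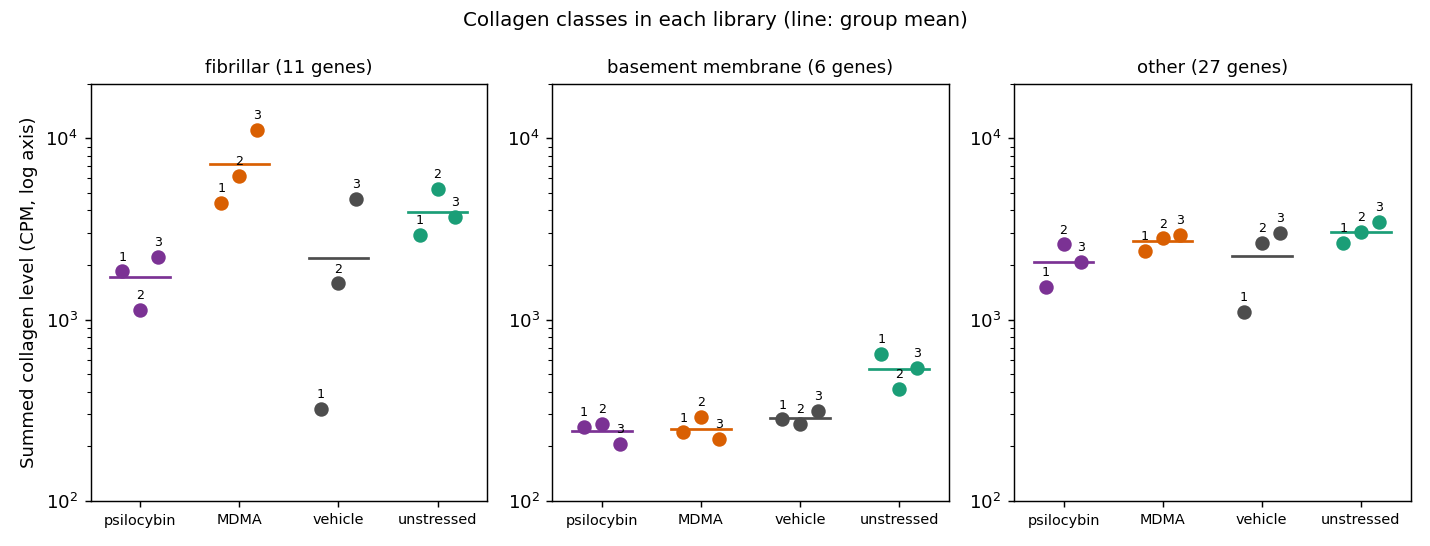
Summed CPM of the fibrillar, basement membrane and other collagen genes (log axis), with 1 numbered point per library and a line at the mean of each group of 3. Fibrillar sums of psilocybin libraries (1131 to 2207) lie below those of MDMA libraries (4387 to 11058), and basement membrane sums of unstressed libraries (415 to 646) lie above those of the 9 other libraries.

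Psilocybin was compared with MDMA first. Both groups were stressed and counted over the same annotation, as was the vehicle group. Most fibrillar genes were lower in the psilocybin libraries. The log2 difference was negative for 11 of 11 fibrillar genes with a median of -1.49, for 3 of 6 basement membrane genes with a median of 0.02, and its median was -0.30 over the 21 other collagen genes tested, against 0.02 over all 13947 genes tested. No collagen gene passed an adjusted p of 0.05 in edgeR's quasi-likelihood test, where 0% of all genes did. At an unadjusted p under 0.05 there were 4 collagen genes, where 0.581% of all genes passed, and with DESeq2 or limma voom 0 passed after adjustment. DESeq2 gave no adjusted p for Col6a3, Col16a1, Col20a1 and Col27a1 in any comparison, so its collagen counts leave these genes out.

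Libraries of the 2 groups did not overlap for 14 of the 38 collagen genes with psilocybin lower, where 8.33% of all genes tested did so, and for 1 with psilocybin higher, where 7.76% did. The 14 were 8 fibrillar genes (Col1a1, Col1a2, Col3a1, Col5a1, Col5a2, Col11a1, Col11a2 and Col27a1), 1 basement membrane gene (Col4a1) and 5 others (Col6a1, Col6a3, Col12a1, Col14a1 and Col16a1). The groups overlapped for the fibrillar genes Col2a1, Col5a3 and Col24a1. The differences of Col5a3 (-0.11 ± 1.43) and Col24a1 (-0.09 ± 1.74) were far smaller than their SE. For Col2a1 (-1.92 ± 1.83) MDMA library 3 was the only MDMA library with counts. The fibrillar median kept its sign under each of the 22 other settings run, between -1.81 and -1.16, and at most 2 fibrillar genes were positive in any setting. Only 1 fibrillar gene was left among genes with nearly the same exons. The settings reuse the same libraries, and those that leave out vehicle or unstressed libraries keep every psilocybin and MDMA library. They are therefore not separate support for the sign.

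**Figure D3:**
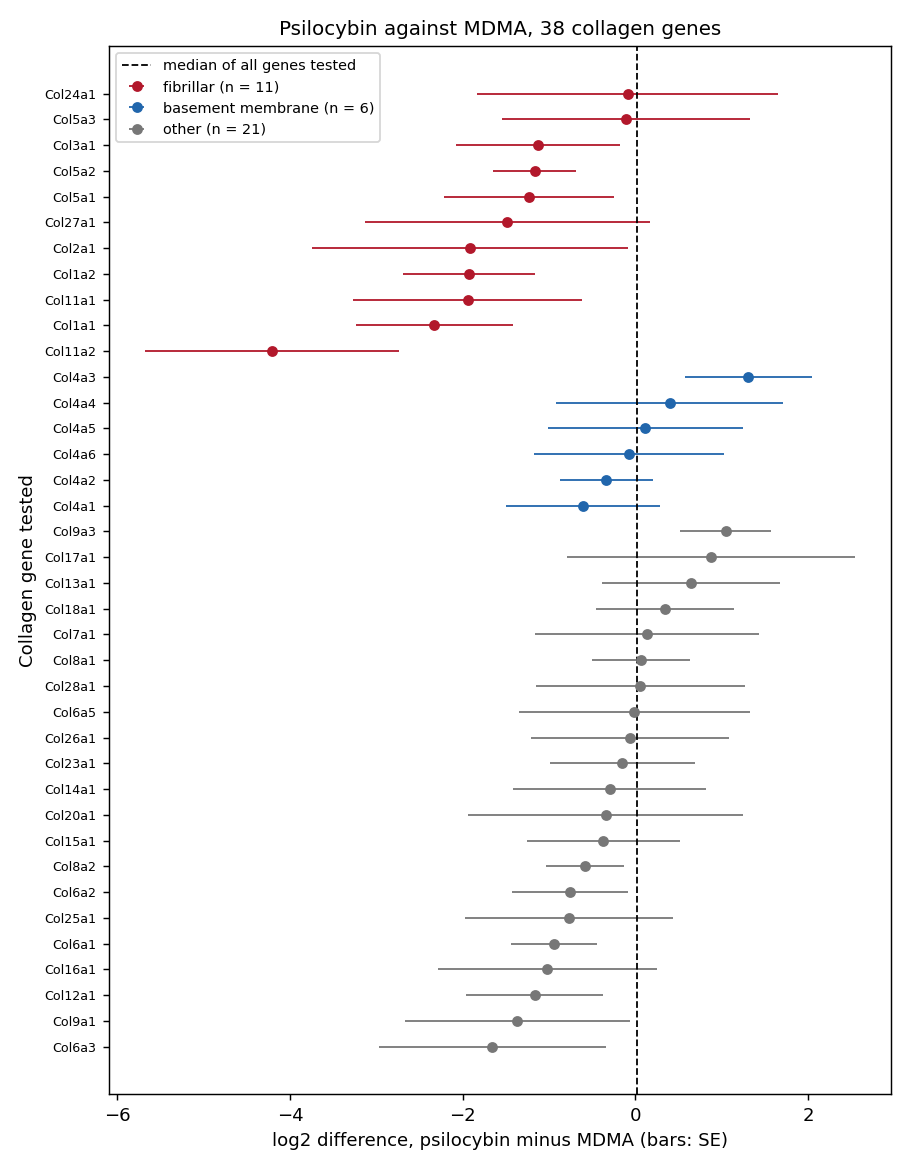
Log2 difference between psilocybin and MDMA libraries for the 38 collagen genes tested, grouped by class, with bars of 1 SE from edgeR and a dashed line at the median of all genes tested (0.02). All 11 fibrillar points lie left of the line, from Col11a2 at -4.21 to Col24a1 nearest the line.

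Col1a1 (chr11:94936224-94953042, plus strand, mm10) encodes the pro-alpha1 chain of type I collagen. It had 636, 534 and 930.1 CPM in psilocybin, 2095, 2126 and 6982 CPM in MDMA, 35.3, 764 and 1509 CPM in vehicle and 914, 2466 and 1179 CPM in unstressed libraries. MDMA library 3 was the highest of the 12, and each MDMA library was above each psilocybin and vehicle library. The psilocybin minus MDMA difference was -2.33 ± 0.91 (log2, SE), with an adjusted p of 1 in edgeR over all genes tested, and MDMA minus vehicle was 1.87 ± 0.90 with an edgeR adjusted p of 0.313.

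Col1a2 (chr6:4504814-4541544, plus strand), which encodes the partner alpha2 chain, had 787, 357 and 854 CPM in psilocybin, 1633, 3185 and 2991 CPM in MDMA, 134, 468 and 1748 CPM in vehicle and 1081, 1802 and 1665 CPM in unstressed libraries. MDMA and psilocybin libraries did not overlap, whereas vehicle library 3 exceeded the lowest MDMA library. The psilocybin minus MDMA difference was -1.93 ± 0.76 with an edgeR adjusted p of 1, and the MDMA minus vehicle difference of 1.32 ± 0.75 had an edgeR adjusted p of 0.414. With limma voom, Col1a1 and Col1a2 passed in MDMA against vehicle at adjusted p of 0.0400 and 0.0455, within ranges of 0.0400 to 1 and 0.0237 to 1 over the 15 other settings. The lowest value for Col1a2 came without vehicle library 3, where the difference was 3.18.

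Col3a1 (chr1:45311538-45349706, plus strand), the single chain of type III collagen, had 303, 161 and 303 CPM in psilocybin and 479.9, 553 and 720.3 CPM in MDMA libraries. Vehicle libraries had 13.2, 189 and 1072 CPM and unstressed libraries 648, 618 and 547 CPM. The psilocybin libraries lay below both the MDMA and the unstressed libraries, and vehicle library 3 was the highest and vehicle library 1 the lowest of the 12. The difference from MDMA was -1.13 ± 0.95, little more than its SE.

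Col5a1 and Col5a2 encode chains of type V collagen, which sits inside type I fibrils and sets their width. Col5a2 (chr1:45374321-45503282, minus strand) had 71.6, 46.1 and 75.0 CPM in psilocybin, 116, 110.2 and 232 CPM in MDMA, 90.8, 80.5 and 60.9 CPM in vehicle and 165, 187 and 184 CPM in unstressed libraries. Col5a1 (chr2:27886425-28039514, plus strand) had 10.1, 7.30 and 7.35 CPM in psilocybin, 12.1, 23.4 and 24.7 CPM in MDMA, 3.86, 1.24 and 0 CPM in vehicle and 42.4, 24.9 and 35.5 CPM in unstressed libraries. For Col5a1 the 4 groups did not overlap, in the order vehicle, psilocybin, MDMA and unstressed, although the highest MDMA and the lowest unstressed library were close. The Col5a2 difference between psilocybin and MDMA was -1.17 ± 0.48, and Col5a1 in MDMA minus vehicle was 3.28 ± 1.09 with an edgeR adjusted p of 0.134. It passed with DESeq2 (adjusted p = 0.00595) and limma voom (adjusted p = 0.0337), in a range up to 1 over the 16 other settings.

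Leaving out the 2 type I genes, the 9 remaining fibrillar genes summed to 419, 239 and 423 CPM in psilocybin and 659, 864 and 1085 CPM in MDMA libraries, still without overlap. The type XI chains, which belong to cartilage and bone fibrils, were named after their values were seen. Col11a2 was at 0.592, 0.769 and 0.735 CPM in psilocybin, 1.68, 17.8 and 22.0 CPM in MDMA, 0 in all 3 vehicle libraries and 2.37, 17.0 and 0.666 CPM in unstressed libraries. Its psilocybin minus MDMA difference of -4.21 ± 1.47 was the largest of the class, and MDMA library 1 differed from the psilocybin libraries by less than 2 CPM. Col11a1 had 19.8, 13.1 and 22.8 CPM in psilocybin, 29.2, 122 and 63.1 CPM in MDMA, 0, 18.6 and 86.5 CPM in vehicle and 25.8, 78.1 and 25.1 CPM in unstressed libraries. In the unstressed group, library 2 stood above libraries 1 and 3 for Col1a1, Col11a1 and Col11a2.

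Bone markers moved with these values. Bglap, which encodes osteocalcin, had 0.592, 0.384 and 0.490 CPM in psilocybin, 26.9, 63.3 and 26.7 CPM in MDMA, 0, 0 and 0.512 CPM in vehicle and 0, 45.9 and 0 CPM in unstressed libraries. Ibsp, which encodes bone sialoprotein, had 0.592, 3.46 and 8.83 CPM in psilocybin, 43.5, 107 and 138 CPM in MDMA, 17.7, 0 and 18.4 CPM in vehicle and 23.4, 153 and 0.222 CPM in unstressed libraries. Both were high in the MDMA libraries and in unstressed library 2, the 4 libraries with the highest Col1a1. The whole list of 10 osteoblast markers summed to 199 to 324 CPM in psilocybin, 418 to 750.1 CPM in MDMA, 126 to 349.5 CPM in vehicle and 226 to 589.7 CPM in unstressed libraries. Of these 10, 6 lay lower in psilocybin than in MDMA without overlap, where 8.33% of all genes tested did so, and 5 higher in MDMA than in vehicle, where 16.8% did, with 0 past the adjusted threshold in edgeR. Of the 10 fibroblast markers, 3 and 3 did so, against the same shares of all genes. The part of either cell type in the collagen values was not tested.

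**Figure D4:**
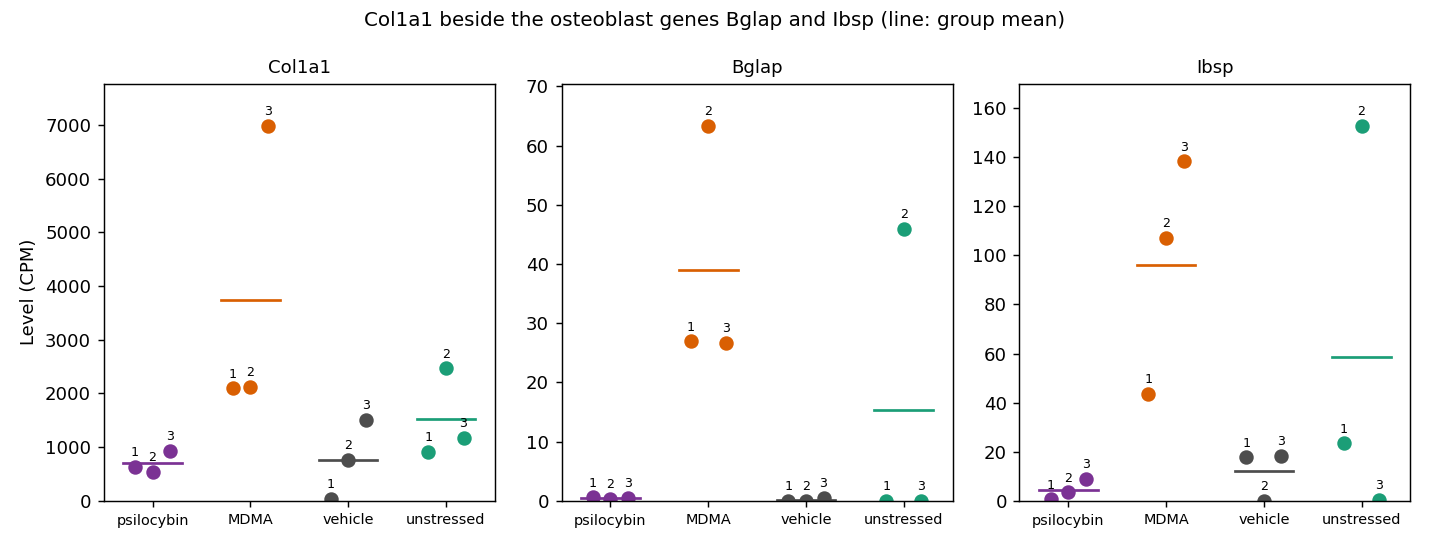
CPM of Col1a1, Bglap and Ibsp in each library (linear axes from 0, numbered points, line at the mean of each group of 3). The 3 MDMA libraries and unstressed library 2 are the 4 highest in each panel.

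In MDMA against vehicle, the 38 collagen genes had a median log2 difference of 0.41 (fibrillar 0.75, basement membrane 0.01, other 0.23), against 0.24 over all genes tested. These medians moved with vehicle library 3. Without it they were 1.76, 3.18, 0.48 and 1.56, against 0.37 over all genes, and with limma voom 1.37, 2.5, 1.49 and 1.23, against 1.29. The median of all collagens was -0.04 without MDMA library 2 and -0.06 with the 6 libraries alone, so its sign depended on the setting, as did those of the basement membrane and other classes. The fibrillar median was positive under each of the 22 other settings run, from 0.41, although these settings reuse the same libraries. No collagen gene passed in edgeR, where 0.667% of all genes did, all of them higher (0% lower). There were 8 at an unadjusted p under 0.05, where 16.7% of all genes passed, 5 with DESeq2 and 4 with limma voom. No share of all genes passing with DESeq2 or limma voom is given in any comparison. The collagen counts from those methods therefore cannot be set against all genes. Groups did not overlap for 10 collagen genes with MDMA higher, where 16.8% of all genes did so, and for 1 with MDMA lower, where 1.87% did. DESeq2's size factors in place of TMM scaling moved the median of all genes to 0.10 here, to 0.12 in psilocybin against vehicle (0.31 with TMM) and to 0.00 in vehicle against unstressed (-0.18 with TMM), and by less in the other comparisons. Leaving out vehicle library 2 brought 5 collagen genes past the threshold, where 22.1% of all genes were then higher and 2.94% lower. Leaving out vehicle library 3 brought 2, where 1.88% were higher and 0.0483% lower.

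The gene with MDMA lower was Col9a3 (chr2:180597790-180622189, plus strand), a chain of the fibril-associated type IX collagen. It had 161, 312 and 151 CPM in psilocybin, 138, 61.9 and 119.9 CPM in MDMA, 285, 391 and 176 CPM in vehicle and 235, 74.6 and 226 CPM in unstressed libraries. The MDMA libraries lay below every psilocybin and vehicle library, and unstressed library 2 was the only library outside MDMA at that level. The difference was 1.04 ± 0.52 for psilocybin minus MDMA, with an edgeR adjusted p of 1, and -1.60 ± 0.53 for MDMA minus vehicle, with adjusted p of 0.133 in edgeR and 0.0340 in DESeq2 (up to 0.830 over 15 other settings). Its partner chains were near 0, with Col9a1 at 5.99 CPM or less and Col9a2 at 6.03 CPM or less in all 12 libraries. The choroid plexus markers took the same direction between the drug groups, 7 of 10 being higher in psilocybin than in MDMA without overlap, where 7.76% of all genes tested were, and their part in the Col9a3 difference was not tested.

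Psilocybin against vehicle gave 0 collagen genes in edgeR, where 0.0143% of all genes passed. There were 5 at an unadjusted p under 0.05, where 15.9% of all genes passed, 2 with DESeq2 (Col4a6 and Col28a1) and 1 with limma voom (Col28a1). The median difference was -0.44 over the 38 genes and -0.61 over the fibrillar class, against 0.31 over all genes, and groups did not overlap for 6 collagen genes with psilocybin higher, where 20.8% of all genes did so, and for 0 with psilocybin lower, where 2.62% did. These medians changed sign with the setting. Without vehicle library 3 the median was 1.02 over 39 collagen genes, of which 28 were positive, and 1.34 over the fibrillar class. With limma voom 28 of 38 collagen genes were positive with a median of 1.17. All genes then had a higher median of 1.45, with 11106 of 13947 positive. Without vehicle libraries 1 and 3 the collagen median was 0.47. Over the settings the fibrillar median lay between -1.01 and 2.0, the upper end being Col5a1 alone, the single fibrillar gene with nearly the same exons. Without vehicle library 2, 5 collagen genes passed, where 21% of all genes were then higher and 3.6% lower.

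Vehicle against unstressed gave the only collagen gene past the threshold, Col4a6, where 3.36% of all genes passed. Col4a6 (chrX:141165403-141474076, minus strand) encodes the alpha6 chain of type IV collagen, found in the basement membranes of smooth muscle and some epithelia. It had 0 counts in each vehicle library and 34, 27 and 26 counts (11.5, 6.74 and 5.77 CPM) in unstressed libraries. The vehicle group fell by at least 16.2-fold, taking 3 counts over the group as the floor, and the edgeR adjusted p was 0.0495. Psilocybin libraries held 24, 9 and 20 counts and MDMA libraries 28, 1 and 50. The call held in 4 of 14 other settings, with adjusted p from 0.00387 to 0.273. It was lost with size factors (adjusted p = 0.0590), without the filter (0.0654), without vehicle library 1 (0.0964) or 3 (0.0545) and without each unstressed library in turn (0.0923 to 0.100). It was also lost with a replicate block (0.104), without vehicle libraries 1 and 3 together (0.208) and with only the 6 libraries compared (0.273).

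In the same comparison the median difference was -0.79 over the 38 collagen genes, against -0.18 over all genes. It was -1.61 without vehicle library 3 and -1.65 with limma voom, where the median over all genes was -1.16. The fibrillar median of -0.56 was -2.48 without vehicle library 3 and -0.08 without vehicle library 1. Groups did not overlap for 12 collagen genes with vehicle lower, where 17.8% of all genes did so, and for 0 with vehicle higher, where 2.77% did. At an unadjusted p under 0.05 there were 10, where 18.5% of all genes passed, with DESeq2 5 and with limma voom 4. Col5a1 was the nearest to the threshold in edgeR after Col4a6, at -4.08 ± 1.13 (adjusted p = 0.0615). Without vehicle library 2 there were 6 and without vehicle library 3 there were 7 collagen genes past the threshold in edgeR, where 22.2% and 5.35% of all genes were lower and 3.31% and 1.44% higher.

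A test of any difference among the 4 groups gave 0 collagen genes in edgeR, where 0.43% of all genes passed, with 8 at an unadjusted p under 0.05, where 14.3% of all genes passed, 5 with DESeq2 and 2 with limma voom.

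Fewer collagen genes were detected in vehicle libraries, and so were fewer genes of any kind than in the drug groups. Over all genes, vehicle libraries 1, 2 and 3 had 12691, 15649 and 11039 with a count, against 19491 to 24122 in the drug groups. These totals were not drawn down to a common depth, so the collagen numbers below are not shown to be particular to collagens. At least 1 count was seen for 43, 42 and 41 of the 44 genes in psilocybin, 43, 40 and 43 in MDMA, 25, 32 and 26 in vehicle and 35, 43 and 39 in unstressed libraries. Had each library been drawn down to the smallest total, 36.4 to 37.5 genes would be seen in psilocybin, 35.6 to 41.8 in MDMA and 34.6 to 39.8 in unstressed libraries, against 23.2 to 32 in vehicle. Besides Col4a6, the genes tested at 0 in every vehicle library were Col2a1, Col9a1, Col11a2 and Col28a1. With counts pooled over each group, Col28a1 was at least 18.8-fold higher in psilocybin and 20.8-fold higher in MDMA than in vehicle. The MDMA libraries were uneven, with 61, 1 and 51 counts of Col28a1, so MDMA library 2 was close to the vehicle libraries.

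Vehicle libraries also held single genes at levels seen nowhere else, picked out after the values were seen. The highest library was more than 4 times the second highest for 6 of the 44 genes, and that library was a vehicle one for 5 of them. No share of all genes with such a peak is given, so these peaks are not shown to be particular to collagens. In vehicle library 3, Col6a3 had 482 CPM (942 counts) against at most 92.3 CPM elsewhere, and Col27a1 had 157 CPM (307 counts) against at most 31.8 CPM. In vehicle library 1, Col20a1 had 48.6 CPM (176 counts) and Col24a1 had 44.7 CPM (162 counts), against at most 6.44 and 9.10 CPM elsewhere. The exception was Col19a1, at 55.3 CPM (158 counts) in MDMA library 2 against at most 2.14 CPM elsewhere.

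Type IV collagen genes lie in head-to-head pairs, in which the partner chains are read in opposite directions from neighbouring start sites. The starts of Col4a1 (chr8:11198423-11312826, minus strand) and Col4a2 (chr8:11312805-11449287, plus strand) were 21 bases apart in GENCODE vM21, those of Col4a3 and Col4a4 72 bases and those of Col4a5 and Col4a6 1309 bases. The windows from 250 bases before to 50 after the RefSeq start (GRCm38.p6) are shown for the pair that is most closely joined and for the pair that holds the single gene past the threshold. Capitals mark the GC box GGGCGG or its reverse complement CCGCCC, and the CCAAT box or its reverse complement ATTGG. They lie at chr8:11312777-11313076 (minus strand) for Col4a1, chr8:11312555-11312854 (plus) for Col4a2, chrX:141475169-141475468 (plus) for Col4a5 and chrX:141474027-141474326 (minus) for Col4a6.
Col4a1: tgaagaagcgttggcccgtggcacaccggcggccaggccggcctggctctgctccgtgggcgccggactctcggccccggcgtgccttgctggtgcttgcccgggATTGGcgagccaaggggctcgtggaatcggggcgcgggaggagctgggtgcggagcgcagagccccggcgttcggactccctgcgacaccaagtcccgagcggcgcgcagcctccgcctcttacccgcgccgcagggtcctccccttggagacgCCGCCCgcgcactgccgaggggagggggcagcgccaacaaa
Col4a2: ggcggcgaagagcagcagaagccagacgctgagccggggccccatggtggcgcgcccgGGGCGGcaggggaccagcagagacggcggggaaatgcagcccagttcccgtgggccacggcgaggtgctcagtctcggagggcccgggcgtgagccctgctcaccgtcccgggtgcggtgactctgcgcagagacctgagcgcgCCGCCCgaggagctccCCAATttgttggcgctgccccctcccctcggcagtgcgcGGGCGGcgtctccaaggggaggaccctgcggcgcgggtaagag
Col4a5: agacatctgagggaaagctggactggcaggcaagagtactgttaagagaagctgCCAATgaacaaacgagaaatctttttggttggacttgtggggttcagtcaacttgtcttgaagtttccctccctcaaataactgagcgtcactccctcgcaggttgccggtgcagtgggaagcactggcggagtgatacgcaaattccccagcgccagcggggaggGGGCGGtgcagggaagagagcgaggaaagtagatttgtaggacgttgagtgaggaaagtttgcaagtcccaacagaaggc
Col4a6: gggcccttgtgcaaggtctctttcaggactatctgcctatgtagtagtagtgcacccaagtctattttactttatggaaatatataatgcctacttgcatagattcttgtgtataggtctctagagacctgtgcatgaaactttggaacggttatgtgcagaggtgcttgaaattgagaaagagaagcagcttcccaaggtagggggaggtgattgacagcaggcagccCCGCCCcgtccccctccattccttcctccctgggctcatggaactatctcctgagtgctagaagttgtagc
The Col4a1 and Col4a2 windows overlap by 78 bases. Col4a2 holds 3 GC boxes and 1 CCAAT box, Col4a1 and Col4a5 hold 1 of each, and Col4a6 holds 1 GC box and no CCAAT box, while none of the 4 holds TATAAA on either strand. Of the 38 windows of 35 collagen genes, 60.5% hold a GC box, 34.2% a CCAAT box and 13.2% TATAAA, against 35.7%, 37.4% and 13.6% of all 32851 windows. A match is a description of these letters and not a site.

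Col4a1 and Col4a2 together make the common trimer of type IV collagen. Col4a1 had 47.1, 52.7 and 41.4 CPM in psilocybin, 57.8, 99.0 and 62.1 CPM in MDMA, 57.7, 29.7 and 0.512 CPM in vehicle and 150.2, 99.0 and 122 CPM in unstressed libraries. Col4a2 had 63.9, 85.7 and 67.7 CPM in psilocybin, 83.8, 106 and 92.3 CPM in MDMA, 70.9, 79.2 and 169 CPM in vehicle and 236, 154 and 156 CPM in unstressed libraries. Psilocybin lay below unstressed without overlap for both, and the highest MDMA and the lowest unstressed library nearly met for Col4a1, both at 99.0 CPM when rounded. Psilocybin minus unstressed was -1.38 ± 0.90 for Col4a1 and -1.32 ± 0.55 for Col4a2, with edgeR adjusted p of 0.960 and 0.682.

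The ratio of Col4a1 to Col4a2 per kb was close to constant outside the vehicle group, from 0.529 to 0.810 over the 9 other libraries. In vehicle libraries 1, 2 and 3 it was 0.703, 0.324 and 0.00262, and vehicle library 3 held 1 count of Col4a1 beside 330 of Col4a2. Similar breaks were seen in other vehicle pairs, but uneven pairs were not confined to the vehicle group. Vehicle library 1 held 553 counts of Col4a3 and 0 of Col4a4. Col4a3 to Col4a4 per kb also varied outside the vehicle group, from 0.662 to 12.96. Col4a5 to Col4a6 ran there from 2.77 to 106.4, and MDMA library 2 held 103 counts of Col4a5 and 1 of Col4a6. The ratio of Col6a1 to Col6a2 in vehicle library 1 was 10.2, against 1.81 to 3.44 over the 9 libraries outside the vehicle group. Col6a3 to Col6a1 was 0.00235 in vehicle library 2 and 0.584 in vehicle library 3, against 0.0148 to 0.0875 outside the group.

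**Figure D5:**
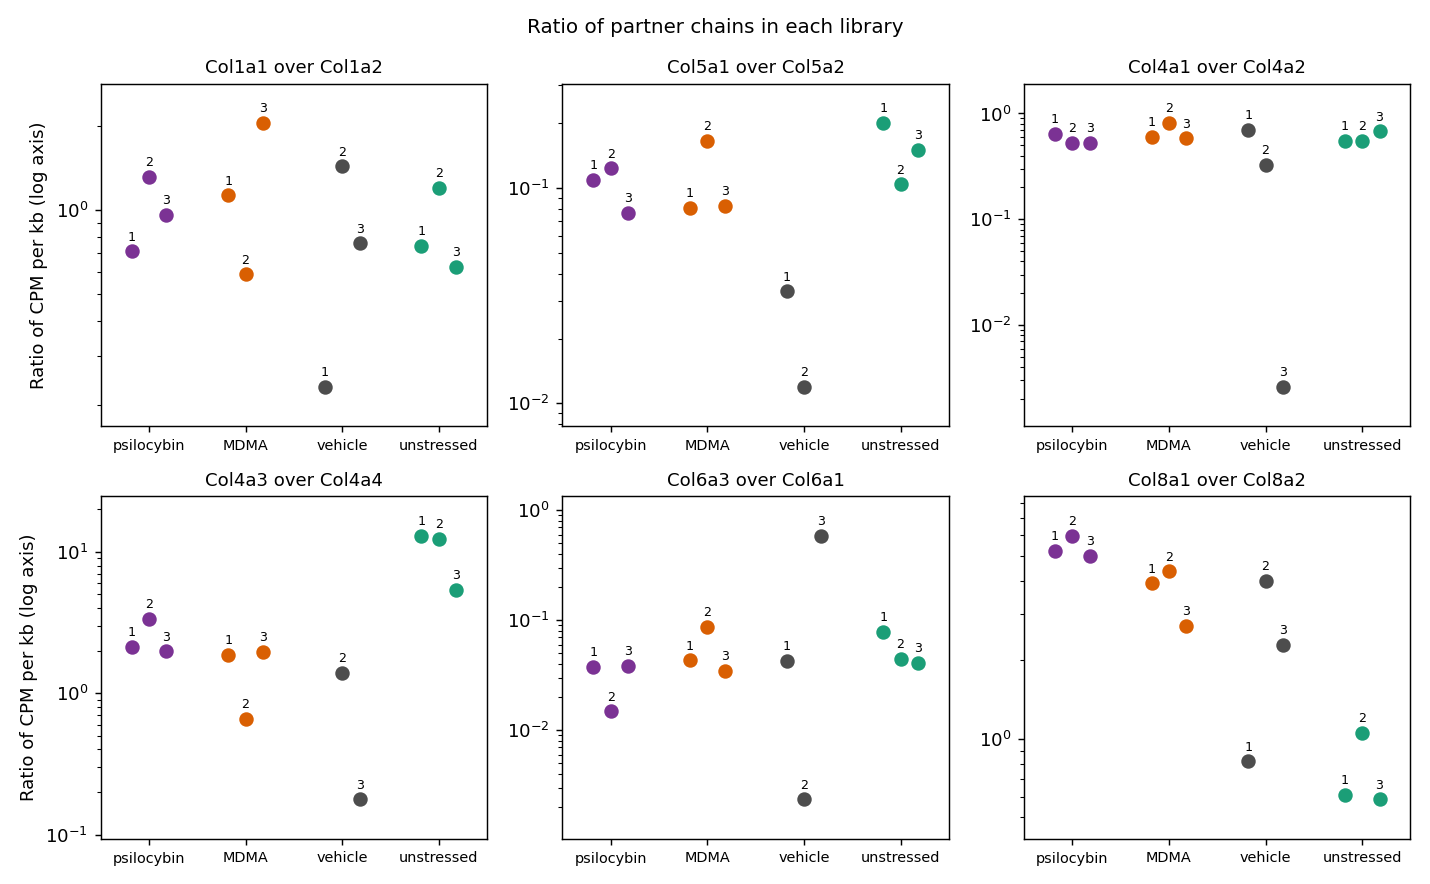
Ratio of CPM per kb between 6 pairs of collagen chains in each library (log axes, numbered points). Ratios with a 0 are not drawn (Col5a1 in vehicle library 3, Col4a4 in vehicle library 1), Col4a1 over Col4a2 is near constant outside vehicle, and Col8a1 over Col8a2 is highest in psilocybin and lowest in unstressed libraries and vehicle library 1.

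Col4a3 and Col4a4 encode chains of the type IV trimer known from kidney and lung. Col4a3 had 72.8, 58.0 and 39.0 CPM in psilocybin, 40.9, 17.1 and 14.8 CPM in MDMA, 153, 60.7 and 15.9 CPM in vehicle and 188, 94.5 and 184 CPM in unstressed libraries. Both drug groups lay below the unstressed group, while vehicle spanned most of the range. MDMA minus unstressed was -2.75 ± 0.77, with an edgeR adjusted p of 0.282 over 12 libraries, 0.0246 when only the 6 libraries compared were fitted, 0.0167 with DESeq2 and 0.00908 without vehicle libraries 1 and 3. Over the 14 other settings it reached up to 0.966.

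Against unstressed, both drug groups gave 0 collagen genes in edgeR over the 12 libraries, where 0.0789% of all genes passed in each (psilocybin 0.0287% higher and 0.0502% lower, MDMA 0.0215% higher and 0.0574% lower). For psilocybin there were 6 at an unadjusted p under 0.05, where 6.32% of all genes passed, and 1 (Col8a2) with DESeq2 and with limma voom. For MDMA there were 2 at an unadjusted p under 0.05, where 4.96% of all genes passed, 1 (Col4a3) with DESeq2 and 0 with limma voom. With the 6 libraries of psilocybin and unstressed alone, 10 of 34 collagen genes fell, where 6.29% of all genes fell and 4.03% rose. They were Col3a1, Col4a1, Col4a2, Col4a3, Col5a1, Col5a2, Col5a3, Col6a2, Col8a2 and Col16a1. With the 6 libraries of MDMA and unstressed alone, Col4a3 was the 1 collagen gene that fell, where 1.26% of all genes fell and 0.505% rose.

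The median difference of psilocybin from unstressed was -1.20 over the 38 genes, -1.46 over the fibrillar, -0.96 over the basement membrane and -1.06 over the other class, against 0.02 over all genes. That of MDMA from unstressed was -0.47, with -0.09, -0.65 and -0.43 in the same classes, against 0.04, and the fibrillar value turned positive in some settings (0.10 without MDMA library 1 and up to 0.76 with a filter of 5 CPM in 3 libraries). Libraries did not overlap with psilocybin lower for 18 collagen genes, where 18.5% of all genes did so, and with psilocybin higher for 1, where 18.3% did. For MDMA these were 12, where 10.7% of all genes did so, and 2, where 11.7% did. The exons of 8 of the 44 collagen genes nearly matched between the annotations, and for most the Ensembl exons are longer, as for Col3a1 (9675 own bases, against 5564 in RefSeq) and Col5a2 (9591, against 6615).

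Col8a1 and Col8a2 encode the chains of type VIII collagen, a short-chain lattice known from endothelium and the corneal membrane. Col8a1 (chr16:57624258-57754737, minus strand) had 396, 1427 and 708 CPM in psilocybin, 611, 954 and 892 CPM in MDMA, 193, 1213 and 453 CPM in vehicle and 276, 532 and 311 CPM in unstressed libraries. Col8a2 (chr4:126286793-126314330, plus strand) had 77.3, 244 and 144 CPM in psilocybin, 159, 223 and 336 CPM in MDMA, 240.4, 308 and 203 CPM in vehicle and 463, 516 and 541 CPM in unstressed libraries. The partners thus took opposite directions against unstressed libraries.

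Psilocybin minus unstressed was 1.18 ± 0.58 for Col8a1 (edgeR adjusted p = 0.812) and -1.71 ± 0.46 for Col8a2 (edgeR adjusted p = 0.234). For Col8a2 the adjusted p was 0.0498 with DESeq2, 0.0371 with limma voom and 0.0307 with the 6 libraries alone, and up to 1 over 14 other settings. MDMA minus unstressed was 1.12 ± 0.58 for Col8a1. The ratio of Col8a1 to Col8a2 per kb was 5.24, 5.96 and 5.00 in psilocybin, 3.93, 4.36 and 2.71 in MDMA, 0.818, 4.02 and 2.28 in vehicle and 0.609, 1.05 and 0.586 in unstressed libraries. Psilocybin libraries exceeded all others, and unstressed libraries lay below both drug groups. Own exon bases were longer in Ensembl for Col8a1 (7833, against 5110) and shorter for Col8a2 (4489, against 5219), so annotation and group cannot be told apart in the contrast of this ratio with unstressed libraries.

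Type VI collagen forms beaded filaments from chains encoded by Col6a1, Col6a2 and Col6a3. Col6a1 (chr10:76708792-76726168, minus strand) had 221, 114 and 283 CPM in psilocybin, 394, 387 and 459 CPM in MDMA, 127, 193 and 303 CPM in vehicle and 387, 450.0 and 618 CPM in unstressed libraries. Col6a2 (chr10:76595762-76623630, minus strand) had 133, 61.1 and 173 CPM in psilocybin, 218, 163 and 269 CPM in MDMA, 17.9, 115 and 167 CPM in vehicle and 309, 326 and 449 CPM in unstressed libraries. Psilocybin and vehicle overlapped for both genes and lay below unstressed, and for Col6a1 the MDMA libraries were above psilocybin and vehicle without overlap. The psilocybin minus MDMA difference of Col6a1 was -0.95 ± 0.50, with an edgeR adjusted p of 1.

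Col6a3 had 22.8, 4.61 and 29.4 CPM in psilocybin, 46.3, 92.3 and 43.0 CPM in MDMA, 14.6, 1.24 and 482 CPM in vehicle and 82.1, 54.1 and 68.6 CPM in unstressed libraries. The psilocybin libraries lay below the MDMA and unstressed libraries, and the vehicle group held both the lowest and the highest library.

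Col12a1 and Col14a1 encode fibril-associated collagens that bind the surface of type I fibrils. Col12a1 (chr9:79598991-79718831, minus strand) had 219.9, 91.9 and 287 CPM in psilocybin, 438, 578 and 354 CPM in MDMA, 71.5, 113 and 679.6 CPM in vehicle and 281, 558 and 629 CPM in unstressed libraries. Col14a1 (chr15:55307750-55520803, plus strand) had 131, 85.3 and 140.0 CPM in psilocybin, 158, 143 and 155 CPM in MDMA, 0, 48.3 and 154 CPM in vehicle and 221, 165 and 209.8 CPM in unstressed libraries. For both, psilocybin lay below MDMA in every library, and the gap for Col14a1 was 3 CPM.

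Genes that act on collagens were followed in 6 lists, of which 4 held a gene past the threshold in some comparison. In vehicle against unstressed, 2 of 21 tested genes of chain modification and folding fell, 2 of 12 of procollagen processing and cross-linking, 1 of 9 collagen receptors and 1 of 15 of collagen breakdown, with 0 higher, where 3.13% of all genes were lower and 0.222% higher. The median differences were -0.19, -0.34, -0.57 and -0.98, against -0.18 over all genes. Of 16 fibril-binding proteoglycans and 14 basement membrane partners tested, 0 passed in edgeR.

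Colgalt1, which adds galactose to hydroxylysine of collagen chains, had 12, 20 and 5 counts in vehicle and 242, 341 and 496 in unstressed libraries (log2 difference -3.28 ± 0.77, edgeR adjusted p = 0.0415), without overlap. Colgalt2, Tll1 (a procollagen C-proteinase) and Itga10 (a collagen-binding integrin chain) were at 0 in all vehicle libraries, at least 33.2-fold, 36.0-fold and 45.1-fold lower than unstressed, with edgeR adjusted p of 0.0396, 0.0342 and 0.0348. Adamts3, a procollagen N-proteinase, held 2 counts over the vehicle group and 343 over the unstressed group, and Mmp16, a membrane-bound metalloproteinase, 1 and 372, with edgeR adjusted p of 0.0470 and 0.0383. Each of these 6 calls was lost under 6 or more of the other settings run, the replicate block among them (adjusted p of 0.0975 to 0.101). Own exon bases were longer in RefSeq, over which the unstressed libraries were counted, for Adamts3 (8310, against 5430 in Ensembl), Itga10 (5041, against 3447), Mmp16 (10300, against 8667) and Colgalt2 (4503, against 4245). They were shorter in RefSeq for Colgalt1 (3266, against 3831) and Tll1 (6790, against 7758).

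In MDMA against vehicle, 1 of 15 collagen breakdown genes rose, where 0.667% of all genes did, and the other 5 lists held 0. It was Mmp13, collagenase-3, which cleaves fibrillar collagen in bone and cartilage. It had 271, 178 and 1625 counts in MDMA and 0, 0 and 1 count in vehicle libraries, a ratio of CPM of 1145 (exact 95% counting interval 205 to 45260), with an edgeR adjusted p of 0.0466. Psilocybin libraries held 22, 30 and 59 counts and unstressed libraries 48, 165 and 2, so unstressed library 2 was again the highest of its group. The call was lost in 9 of the 16 other settings, among them each that left out an MDMA library and the replicate block (adjusted p = 0.150), and the adjusted p ranged from 4.75e-06 to 0.534. In psilocybin against vehicle, psilocybin against MDMA and both drug groups against unstressed, the 6 lists held 0 genes past the threshold in edgeR.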

How the data were processed

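The members, classes, pathway and marker lists were chosen with earlier results of these data known. Whole-number counts per gene were deposited for each library. The submitters' processing notes name mm10, STAR 2.7.5c and featureCounts 2.0.1, beside edgeR 3.42.4, fastp 0.23.2, MultiQC 1.11 and FastQC 0.11.9, with no order or role. Per the file headers, unstressed libraries were counted over RefSeq exons with no strand option recorded. The stressed libraries carry Ensembl identifiers, and no source used here states their counting command. A series table held 3 columns of no sample used here.

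The annotations were joined with GENCODE vM21 into 27593 genes (26669 by symbol, 924 by position), holding 94.8% to 99.1% of each library's counts, and the exons of 7249 genes nearly matched. CPM were computed from each library's total of deposited counts. Log2 differences and adjusted p-values come from edgeR 4.0.16 quasi-likelihood tests in R 4.3.3 over 12 libraries and 13947 genes (TMM, filterByExpr, group only, Benjamini-Hochberg at 0.05). The code was also run on simulated counts with the same spread for every gene. That run does not show the error rate at the uneven spread of these libraries. DESeq2 1.42.0, limma 3.58.1 voom, other scaling, filters, sample sets and a replicate block were alternatives. Same-numbered vehicle and psilocybin libraries had positive correlations of their deviations (0.112, 0.213 and 0.115). So had psilocybin and MDMA libraries (0.225, 0.0237 and 0.214) and unstressed and vehicle libraries (0.02, 0.131 and 0.0953). Each remaining pair of groups held a negative value. These correlations do not establish a pairing of any groups, and the meaning of the number is unknown. The main tests fitted group only, so their psilocybin minus vehicle values take no account of the number. The replicate block was the alternative that used it. Counting intervals and floors cover counting error only. Named collagen genes are the 12 highest per kb, those past the threshold and their partner chains, and other collagen genes were named after their values were seen. From each pathway list, up to 3 genes past the threshold with the smallest p were named. Promoter windows come from RefSeq (GRCm38.p6).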

Additional observations from a re-analysis of the deposited data

How the results depend on the processing

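Collagen genes past the adjusted threshold numbered 1 in vehicle against unstressed (Col4a6) and 0 in every other comparison, and the alternatives moved these counts as follows. In vehicle against unstressed there were 0 with size factors, without the filter, with a replicate block, among genes with nearly the same exons (Col4a6 is not one of them) and with only the 6 libraries compared, 5 with DESeq2, 4 with limma voom, 3 without vehicle libraries 1 and 3, and 0 to 7 when single libraries were left out. In psilocybin against vehicle there were 2 with DESeq2, 1 with limma voom and 0 to 5 without single libraries (5 without vehicle library 2). In MDMA against vehicle there were 5 with DESeq2, 4 with limma voom and 0 to 5 without single libraries (5 without vehicle library 2, 2 without vehicle library 3). In psilocybin against unstressed there were 1 with DESeq2, 1 with limma voom, 7 without vehicle libraries 1 and 3 and 10 with only the 6 libraries. In MDMA against unstressed there was 1 under each of DESeq2, leaving out vehicle libraries 1 and 3, and only the 6 libraries. For any difference among the 4 groups there were 1 without the filter, 5 with DESeq2, 2 with limma voom, 6 without vehicle libraries 1 and 3 and 0 to 2 without single libraries. Psilocybin against MDMA gave 0 under every setting run. The replicate block gave 0 collagen genes in every comparison. It ended all 8 calls among the 28 log2 differences followed (Col4a6, Colgalt1, Colgalt2, Adamts3, Tll1, Itga10 and Mmp16 in vehicle against unstressed, Mmp13 in MDMA against vehicle), with edgeR adjusted p of 0.0975 to 0.150. The cause of these shifts was not tested. Shares of all genes passing under the alternatives are given only where printed above, so the other counts cannot be set against all genes.

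None of the 28 log2 differences changed sign under the settings run, which reuse the same libraries. Of the 72 class sums recomputed, 21 moved by more than the SD between libraries. Without Col1a1 the fibrillar sums averaged 1027 CPM in psilocybin, 3472 in MDMA and 2421 in unstressed libraries, in place of 1727, 7207 and 3941. The basement membrane sums averaged 170, 156, 180.3 and 353 CPM in psilocybin, MDMA, vehicle and unstressed libraries without Col4a2, and 134, 146, 181 and 247 CPM over members with nearly the same exons, in place of 242, 249.7, 287 and 535. With TMM scaling the vehicle value was 334.9. Depth was most limiting in vehicle library 2, in which 1 count is 1.24 CPM.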
